A study of Rattus norvegicus with 6 samples.

Results

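Endothelial cells line the blood and lymph vessels of the pancreas, and they were taken from a single-cell RNA sequencing series of islet-enriched pancreas from 6 male Wistar rats. Barcodes with at least 200 genes and a mitochondrial share of unique molecular identifiers (UMIs) of at most 25% were kept, and members were chosen by measured values, a kept barcode being counted as endothelial where at least 3 of the genes Pecam1, Cdh5, Kdr, Flt1, Emcn, Plvap and Egfl7 had a UMI, where Ptprc, the leukocyte antigen CD45, had none, and where fewer than 3 of the mural genes Acta2, Myh11, Tagln, Rgs5, Notch3 and Cnn1 had a UMI. Pecam1 was not analysed here, so the rule was run on the other 6 endothelial genes. Of 75981 kept barcodes, 1505 met the rule, 810 of them from young, 545 from old and 150 from HFHF-old rats. Young rats were 2 months old on a normal diet, old rats had eaten the normal diet for 18 months up to an age of 20 months, and HFHF-old rats of 20 months had eaten a high-fat, high-fructose (HFHF) diet for the same 18 months, with 2 rats in each group. All 6 preparations were digested with collagenase P through the bile duct and enriched on a density gradient before dissociation, so the vessels measured are those that this preparation kept. Each library is from 1 rat, and rats are the replicates of the tests below. The p-values of genes rest on a spread between rats that is shared over the 3 groups and moderated across genes. Those of shares come from permuting the rats of 2 groups.

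The endothelium of islets is dense and fenestrated. Plvap forms the diaphragms of its fenestrae, Kdr and Flt1 are the receptors for vascular endothelial growth factor (VEGF) that beta cells secrete, Cdh5 is the cadherin of endothelial junctions, Emcn is a sialomucin of capillaries and veins, and Egfl7 is a protein that endothelial cells secrete. Endothelial cells also lay down the basement membrane that islet cells rest on, carry fatty acids from the blood into tissue, and regulate clotting, vessel tone and the entry of leukocytes.

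The genes of the rule were read against their promoters because ETS family factors such as Erg and Fli1 drive endothelial transcription and the core of their motif is short. The windows below are the 250 bases before the transcription start of 4 of the 6 genes in the RefSeq annotation of the rat build GRCr8, 5′ to 3′ on the strand of the gene, with the letters AGGAAG, or CTTCCT for the same motif on the other strand, in capitals.
Emcn, chr2:228564289-228564538, plus strand: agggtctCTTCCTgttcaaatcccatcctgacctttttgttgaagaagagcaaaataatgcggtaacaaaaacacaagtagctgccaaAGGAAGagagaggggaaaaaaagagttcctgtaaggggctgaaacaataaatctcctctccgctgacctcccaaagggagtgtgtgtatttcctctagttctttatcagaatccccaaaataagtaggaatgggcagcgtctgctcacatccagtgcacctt
Flt1, chr12:12333180-12333429, plus strand: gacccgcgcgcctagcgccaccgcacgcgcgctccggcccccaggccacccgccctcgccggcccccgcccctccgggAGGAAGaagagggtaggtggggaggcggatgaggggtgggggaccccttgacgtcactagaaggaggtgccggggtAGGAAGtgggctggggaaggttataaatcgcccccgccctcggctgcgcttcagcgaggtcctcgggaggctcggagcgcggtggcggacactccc
Plvap, chr16:18231280-18231529, minus strand: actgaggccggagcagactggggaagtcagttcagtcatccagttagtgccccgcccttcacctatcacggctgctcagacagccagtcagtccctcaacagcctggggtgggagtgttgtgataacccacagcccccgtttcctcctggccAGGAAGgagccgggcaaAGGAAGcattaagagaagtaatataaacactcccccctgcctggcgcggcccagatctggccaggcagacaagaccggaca
Kdr, chr14:32571813-32572062, plus strand: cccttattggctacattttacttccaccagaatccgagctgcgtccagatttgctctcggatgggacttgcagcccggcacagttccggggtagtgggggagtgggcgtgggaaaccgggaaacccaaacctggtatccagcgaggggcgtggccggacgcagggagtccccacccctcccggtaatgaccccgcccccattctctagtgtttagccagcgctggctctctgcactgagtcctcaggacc
The motif stood 243 and 162 bases before the start of Emcn, 172 and 96 bases before that of Flt1, and 98 and 81 bases before that of Plvap, while these letters were not in the window of Kdr. The table holds 6 promoters for 5 rule genes, of which 4 held the motif. Egfl7, whose windows are not shown, has a pair of promoters there, 1 with the motif and the other without. The motif was in 6 of 14 promoters of the genes most characteristic of these barcodes (42.9%) and in 9878 of all 33469 promoters (29.5%). These are matches of letters and no measure of binding. The deposited files pair Ensembl identifiers with symbols and give no coordinates of their own.

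The libraries differed in depth and in the RNA of other cells. Files held from 77387928 to 166875258 UMIs, and the median kept barcode had 4316.5 and 5324.5 UMIs in the young rats, 7826 and 2547 in the old rats and 9824 and 8613 in HFHF-old rats, replicate 1 before replicate 2. Endothelial barcodes were shallower, with medians of 3752.5 and 4450 UMIs in young rats, 4902 and 1808 in old rats and 3640 and 5027 in HFHF-old rats, and summed to between 372495 UMIs in HFHF-old replicate 2 and 2172996 in young replicate 1. Between 20 and 69 barcode sequences occurred in both libraries of a pair, and 0 endothelial barcodes were shared. Transcripts of islet hormone and digestive enzyme genes can enter any droplet as free RNA. They made up 1.67% and 15.2% of the endothelial UMIs in young rats, 15.7% and 8.63% in old rats and 5.31% and 0.0566% in HFHF-old rats. The median endothelial barcode held less of this RNA, at 0.469% and 2.63%, 1.17% and 0.825%, and 2.39% and 0.0222%. In old replicate 1 the sum rested on few barcodes, with 95176 of 98773 Ppy UMIs, 25119 of 25632 Gcg UMIs and 12201 of 13638 Ins1 UMIs each from 1 barcode. These UMIs stayed in that rat's total, against which the levels of all its genes are taken. How much of this RNA was free was not tested. HFHF-old replicate 2 stood apart, with next to none of this RNA.

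Barcodes near the limit of the rule differed between libraries. The condition on Ptprc left out 147 of 607 barcodes with at least 3 rule genes in young replicate 1 and 496 of 869 in young replicate 2. It left out 54 of 198 and 99 of 505 in old rats and 34 of 127 and 32 of 91 in HFHF-old rats. The mural condition left out 4 and 19, 0 and 5, and 2 and 0 more. How the shares depend on these conditions was not tested. Between 1.69% of the members in HFHF-old replicate 2 and 27.4% in young replicate 2 held exactly 3 of the rule genes, and between 29.9% in old replicate 2 and 66.0% in old replicate 1 held all 6. Tie1, an endothelial receptor tyrosine kinase that the rule did not use, stood at 286 to 403 CPM (UMIs of the gene per 1000000 UMIs of all genes, summed over the barcodes of a rat) in barcodes with all 6 genes. In members with exactly 3 genes its level was 70.2 and 31.0 in young rats, 17 and 190 in old rats and 144 and 0 in HFHF-old rats. Barcodes that held only 2 of the genes and met the other conditions, 81 and 343 in young rats, 35 and 78 in old rats and 23 and 5 in HFHF-old rats, stood just outside, with Tie1 at 0 to 18.8 CPM. In young replicate 2, 81.4% of the members with exactly 3 genes also held at least 3 markers of another cell type, against 9.09% of those with all 6. In HFHF-old replicate 1 the order was the opposite, at 40% against 63.3%, and in the 3 others with more than 1 such member the share was also higher with exactly 3 genes, at 43.5% against 21.9%, 37.5% against 15.8% and 16.2% against 6.67%. Over all members that share was 27.9% and 36.4% in young rats, 19.4% and 8.23% in old rats and 59.3% and 1.69% in HFHF-old rats, and its part in the results was not tested beyond leaving those barcodes out.

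The rule genes chose the barcodes, so their levels are a description without a test. Plvap stood at 3935 and 3812 CPM in young rats, 2795 and 4582 in old rats and 5125 and 4397 in HFHF-old rats. Flt1, which binds VEGF and placental growth factor, was at 2712 and 2196, 2452 and 2794, and 4099 and 3450, and both HFHF-old rats lay above the 4 others. Kdr, the main signalling receptor for VEGF, ran from 785 to 1098 and Emcn from 924 to 1308, with all 3 groups overlapping. Egfl7 ran from 335 to 450, and its young and HFHF-old rats did not overlap, at 335 and 362 against 365 and 389. Cdh5 was highest in the young rats, at 785 and 581, and lay between 387 and 558 in the 4 others. In the remaining kept barcodes each of these 6 genes was at or below 84.0 CPM.

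**Figure D1:**
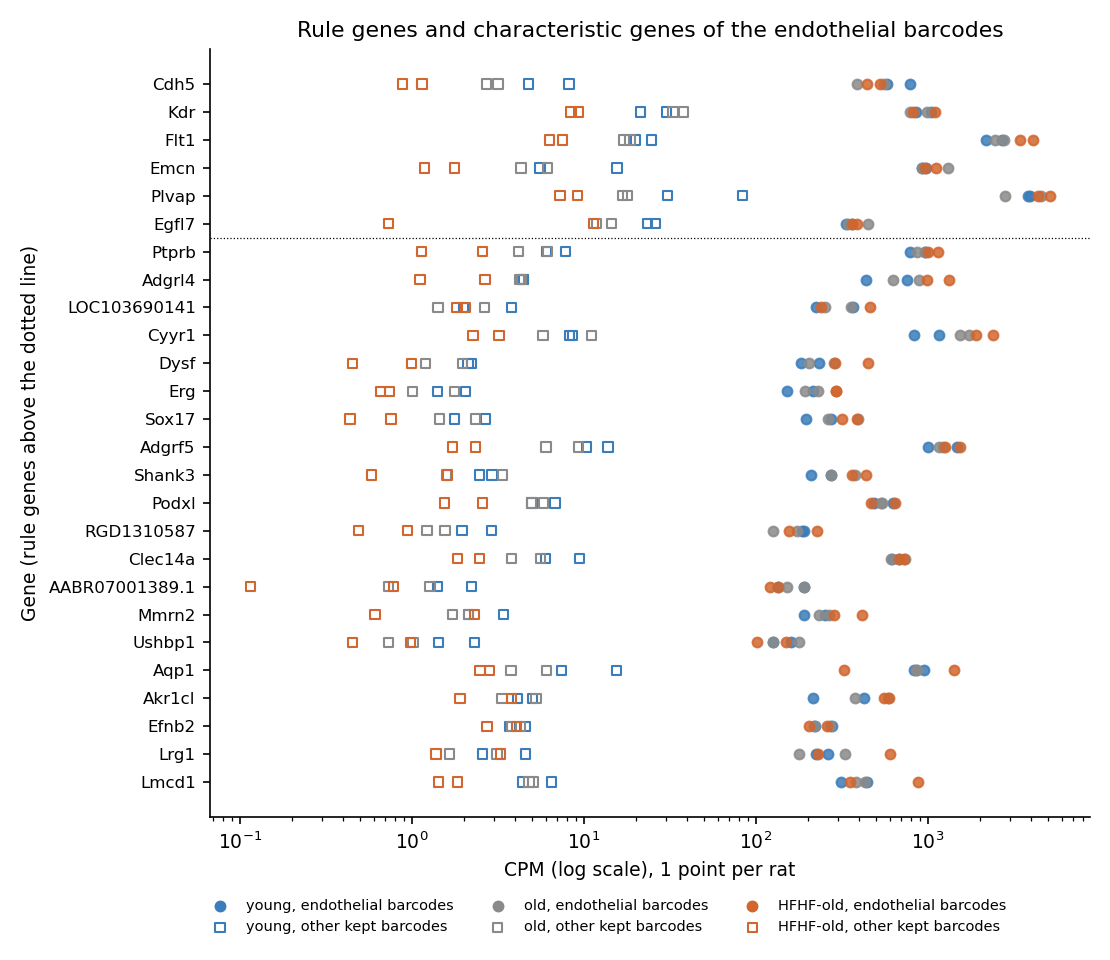
Level in CPM (log axis, 1 point per rat) of the 6 rule genes, above the dotted line, and of the 20 genes outside the rule that were most characteristic, in endothelial barcodes (filled circles) and in all other kept barcodes (open squares), coloured by group. Every characteristic gene was at least 48.4 times higher in the endothelial barcodes in each of the 6 rats.

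The label of endothelial cells was matched by genes the rule did not use. Taken by the lowest ratio over the 6 rats of the level in endothelial barcodes to that in other kept barcodes, the leading gene was Ptprb, the vascular endothelial protein tyrosine phosphatase. Its level was 963 and 784 CPM in young rats, 863 and 963 in old rats and 1154 and 999 in HFHF-old rats, at least 99.9 times that in other barcodes. The transcription factors Erg, with a lowest ratio of 74.8, and Sox17, with 73.2, stood among the first 20, as did Clec14a (65.2) and Mmrn2 (55.9), surface and matrix proteins of endothelium, and Podxl (71.3), a sialomucin of the luminal surface. Adgrl4 and Adgrf5, adhesion receptors of endothelium, had ratios of 98 and 72.7, and Aqp1, the water channel of capillaries, 54.0. These ratios come from cells that were selected for endothelial genes and are given without a test. Lymphatic, arterial, venous and capillary genes were all present, as described below.

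Endothelial barcodes made up 2.61% of the kept barcodes in young replicate 1 (95% exact Clopper-Pearson interval 2.37 to 2.85) and 3.43% in young replicate 2 (3.09 to 3.80). The share was 1.93% (1.63 to 2.26) and 2.44% (2.21 to 2.69) in the old rats, and 0.727% (0.586 to 0.892) and 0.503% (0.383 to 0.648) in HFHF-old rats. These intervals cover counting error only. Counted this way the 3 groups did not overlap, with the young rats highest and both HFHF-old rats at the bottom. Group means were 3.02% ± 0.582 (SD, n = 2) for the young, 2.18% ± 0.365 for the old and 0.615% ± 0.159 for the HFHF-old rats. Old rats were lower than young rats by 0.833 percentage points (two-sided exact permutation test, p = 0.333), and HFHF-old rats were lower than old rats by 1.57 percentage points (two-sided exact permutation test, p = 0.333), which is the smallest p that 2 rats against 2 can give, so no difference could pass 0.05.

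The share depends on what else a library held. Of the kept barcodes without a Ptprc UMI, endothelial barcodes were 5.61% and 7.75% in young rats, 5.07% and 4.84% in old rats and 1.96% and 5.64% in HFHF-old rats. On this denominator HFHF-old replicate 2 lay above both old rats and the HFHF-old and old groups overlapped, with a mean difference of 1.16 percentage points, lower in HFHF-old rats (two-sided exact permutation test, p = 1). With the barcodes that held markers of other cell types left out, the old and young groups overlapped as well and differed in mean by 0.133 percentage points (two-sided exact permutation test, p = 1), while HFHF-old rats were still lower than old rats by 1.5 points (two-sided exact permutation test, p = 0.333). Old and young rats also overlapped with the rule applied at 1000 UMIs, with lymphatic-type barcodes left out, and with at least 4 rule genes required of barcodes without other types' markers (two-sided exact permutation test, p = 0.667 in each). Fewer endothelial cells in the organ, fewer carried through the preparation and more of other cells in a library cannot be told apart from these shares.

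**Figure D2:**
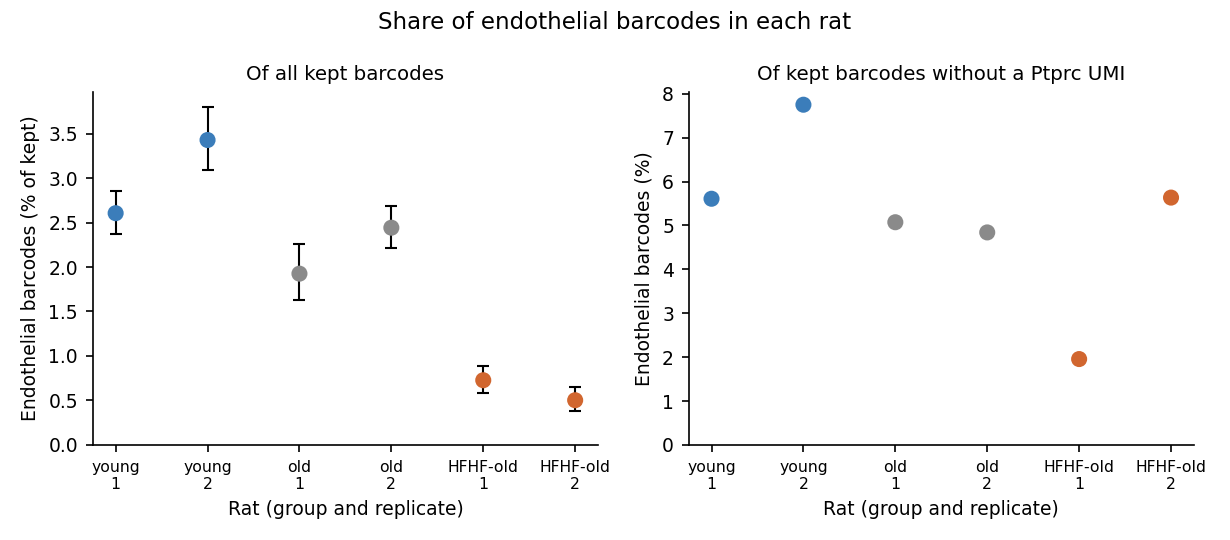
Endothelial barcodes as a percentage of all kept barcodes (left, with 95% exact binomial intervals) and of kept barcodes without a Ptprc UMI (right), 1 point per rat, coloured by group. On the left both HFHF-old rats lie below 0.8%, and on the right HFHF-old replicate 2 stands at 5.64%, above both old rats.

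Vessel segments were read from marker lists. The capillary list of 11 genes, led by the fatty acid binding protein Fabp4, Plvap and Rgcc, summed to 22122 and 14619 CPM in young rats, 9789 and 22324 in old rats and 18065 and 14027 in HFHF-old rats. Plvap and Kdr of this list were also rule genes, so its sum is partly fixed by the selection. Fabp4 was at 9835 and 5339, 2601 and 11143, and 7075 and 5071, so the spread within the old group was wider than that between groups. The arterial list, with the gap junction genes Gja4 and Gja5, Efnb2 and Cxcl12, summed to 1796 to 3246. Genes of sprouting tip cells, among them Esm1, Apln and Angpt2, summed to 708 and 825 in young rats, 498 and 536 in old rats and 459 and 370 in HFHF-old rats, with the young rats highest and the HFHF-old rats lowest. Barcodes with at least 2 of 4 arterial genes were 9.87% and 8.76% of the members in young rats, 14.6% and 4.49% in old rats and 6.59% and 25.4% in HFHF-old rats, but 0% (of 78 barcodes, which allows up to 3.85%) to 1.79% after thinning each barcode to 1000 UMIs, so no order could be read from them.

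Some members held lymphatic markers and are called lymphatic-type here, a name that rests on those markers alone. The lymphatic list of 9 genes summed to 224 CPM in the members of young replicate 1, against 413 in its other kept barcodes. In every other rat the sum was higher in the members. At least 2 of 6 lymphatic genes were found in 47 and 24 barcodes of the young, 15 and 8 of the old and 13 and 10 of the HFHF-old rats, or 10.3% and 6.78%, 10.4% and 2.00%, and 14.3% and 16.9% of the members. Thinned to 1000 UMIs, the shares were 1.41% and 1.49%, 3.97% and 0.587%, and 3.85% and 0%, the last allowing up to 5.36%. These barcodes were deeper than the other members of the same rat, with medians of 7242 against 3454 UMIs in young replicate 1 and 10478.5 against 4392 in HFHF-old replicate 2. Capillary genes that the rule did not use were lower in them in every rat, with Fabp4 at 2046 against 11503 CPM in young replicate 1 and 1771 against 6406 in HFHF-old replicate 2, and Gpihbp1 at 329 against 2092 and 130.5 against 671. The rule genes Plvap, Flt1, Emcn, Kdr and Cdh5 were lower there too, with Plvap at 1407 against 4476 in young replicate 1, while Egfl7 was higher there in both old rats, at 390 against 333 and 501 against 446, and lower in the 4 others. Ccl21, the chemokine of lymphatic endothelium, came from 0 and 3 barcodes in young rats, 2 and 1 in old rats and 3 and 0 in HFHF-old rats, and in HFHF-old replicate 1 those 3 barcodes set a level of 3076 CPM over all members. These sub-groups were chosen with values in view and are given without a test.

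Von Willebrand factor (Vwf), the clotting protein stored by venous, arterial and larger capillary endothelium, marked another part of the members. It was at 347 and 34.2 CPM in young rats, 172 and 55.7 in old rats and 47.8 and 1412 in HFHF-old rats, so HFHF-old replicate 2 stood far above the other 5. In old replicate 1, 1 barcode held 67.3% of the Vwf UMIs. A Vwf UMI was found in 11.6% and 7.63% of the members in young rats, 14.6% and 7.98% in old rats and 12.1% and 45.8% in HFHF-old rats, against 0.362% to 1.89% of the other kept barcodes at the depths given above, and at 1000 UMIs the shares were 8.43% and 2.69%, 7.94% and 4.11%, and 2.56% and 28.6%. Il33, an alarmin held in endothelial nuclei, was higher in barcodes with Vwf than in those without it in every rat, at 869 against 97.2 CPM in young replicate 1, 1164 against 204 in old replicate 2 and 1784 against 81.5 in HFHF-old replicate 2. Procr, the endothelial receptor of protein C, showed the same order in every rat, from 848 against 40.8 in HFHF-old replicate 2 to 158 against 141 in HFHF-old replicate 1. Not every gene compared kept this order. In HFHF-old replicate 1, Bmp6 was at 13.2 against 65.1, Ptgs2 at 0 against 54.7 and Meox2 at 13.2 against 15.6. Barcodes with Vwf were also deeper, with medians of 6295 against 3454 UMIs in young replicate 1 and 7833 against 4363.5 in HFHF-old replicate 2. The venous list as a whole summed to 4244 CPM in HFHF-old replicate 2 and to 677 to 1273 in the 5 other rats.

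Expression was compared between groups on UMIs summed over the endothelial barcodes of each rat, with the quasi-likelihood test of edgeR and Benjamini-Hochberg adjustment over 9664 genes, and a gene was called at an adjusted p under 0.05 and a fold change over 1.5. Between old and young rats 0 genes were called (0% of those tested), with 413 at an unadjusted p under 0.05 (4.27%) and 10 called by DESeq2 (0.103%). The 2 genes with the smallest p were Mapt and AABR07065625.1, and both missed the threshold narrowly. Rank correlations between rats over all genes were 0.759 to 0.909, and the median absolute log2 difference between the 2 rats of a group was 0.356 for the young, 0.375 for the old and 0.518 for the HFHF-old rats.

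Mapt, which encodes the microtubule-associated protein tau, was at 15.6 and 15.0 CPM in the young rats, 125 and 128 in the old rats and 135 and 140 in HFHF-old rats. Both groups of old animals lay far above the young rats, and the 2 rats of each group differed by far less than the groups did. The log2 fold change of old against young was 3.02 with a standard error (SE) of 0.281 and an edgeR adjusted p of 0.0523, so Mapt was not called. It was called in 9 of 21 alternatives, among them DESeq2 (adjusted p = 4.92e-11) and the fits without HFHF-old replicate 1 or 2 (edgeR adjusted p = 0.0355 and 0.0315). It was not called without any one of the 4 rats compared (edgeR adjusted p = 0.451 and 0.9999 without young replicate 1 or 2, and 0.551 and 0.657 without old replicate 1 or 2), with the replicate number as a block (edgeR adjusted p = 0.404) or with called doublets left out (edgeR adjusted p = 0.150). Its log2 fold change lay between 2.89 and 3.33 in all 21. Among these 21, the alternative that required at least 30 endothelial barcodes per rat kept all 6 rats and repeats the main fit. With the barcodes that held markers of other cell types left out it was 3.24 (edgeR adjusted p = 0.0881). HFHF-old and old rats did not differ detectably, with a log2 fold change of −0.01, an SE of 0.261 and an edgeR adjusted p of 0.994.

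The Mapt UMIs were spread over many barcodes. A UMI was found in 5.04% and 5.37% of the endothelial barcodes of the young, 41.0% and 20.9% of the old and 42.9% and 37.3% of the HFHF-old rats. At 1000 UMIs per barcode these shares were 1.41% and 2.39%, 15.1% and 13.8%, and 19.2% and 16.1%, so the 4 animals of 20 months remained above both young rats at equal depth. In the other kept barcodes the share was 1.03% to 6.23% and the level 1.58 to 15.0 CPM, with 8.04 and 7.92 in the young and 10.8 and 15.0 in the old rats. In the 4 animals of 20 months Mapt was lower in the lymphatic-type barcodes than in the other members, at 51.5 against 143 and 15.7 against 136 CPM in old rats and 72.1 against 162 and 0 against 196 in HFHF-old rats, which rest on 12, 1, 10 and 0 UMIs in the lymphatic-type barcodes. The young rats differed in order, at 28.7 against 12.9 in replicate 1 and 0 against 17.1 in replicate 2.

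Sox18, a transcription factor of vascular and lymphatic development, was at 111 and 94.8 CPM in young rats, 21.2 and 22.7 in old rats and 47.8 and 107 in HFHF-old rats, and no higher than 1.73 in the other kept barcodes. Both old rats lay below the 4 others. The log2 fold change was −2.23 with an SE of 0.397 in old against young (edgeR adjusted p = 0.697) and 1.67 with an SE of 0.399 in HFHF-old against old (edgeR adjusted p = 0.331), and neither was called. DESeq2 called the first (adjusted p = 0.0249). A Sox18 UMI was present in 34.2% and 31.6% of the young, 13.9% and 4.99% of the old and 19.8% and 39.0% of the HFHF-old members, and at 1000 UMIs in 10.1% and 11.3%, 3.97% and 4.11%, and 7.69% and 8.93%. Without HFHF-old replicate 2 the second change was 1.00 (edgeR adjusted p = 0.369). The related factor Sox17 was at 275 and 197, 264 and 394, and 317 and 389 CPM, so both HFHF-old rats lay above both young rats and the old rats overlapped with either group.

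**Figure D3:**
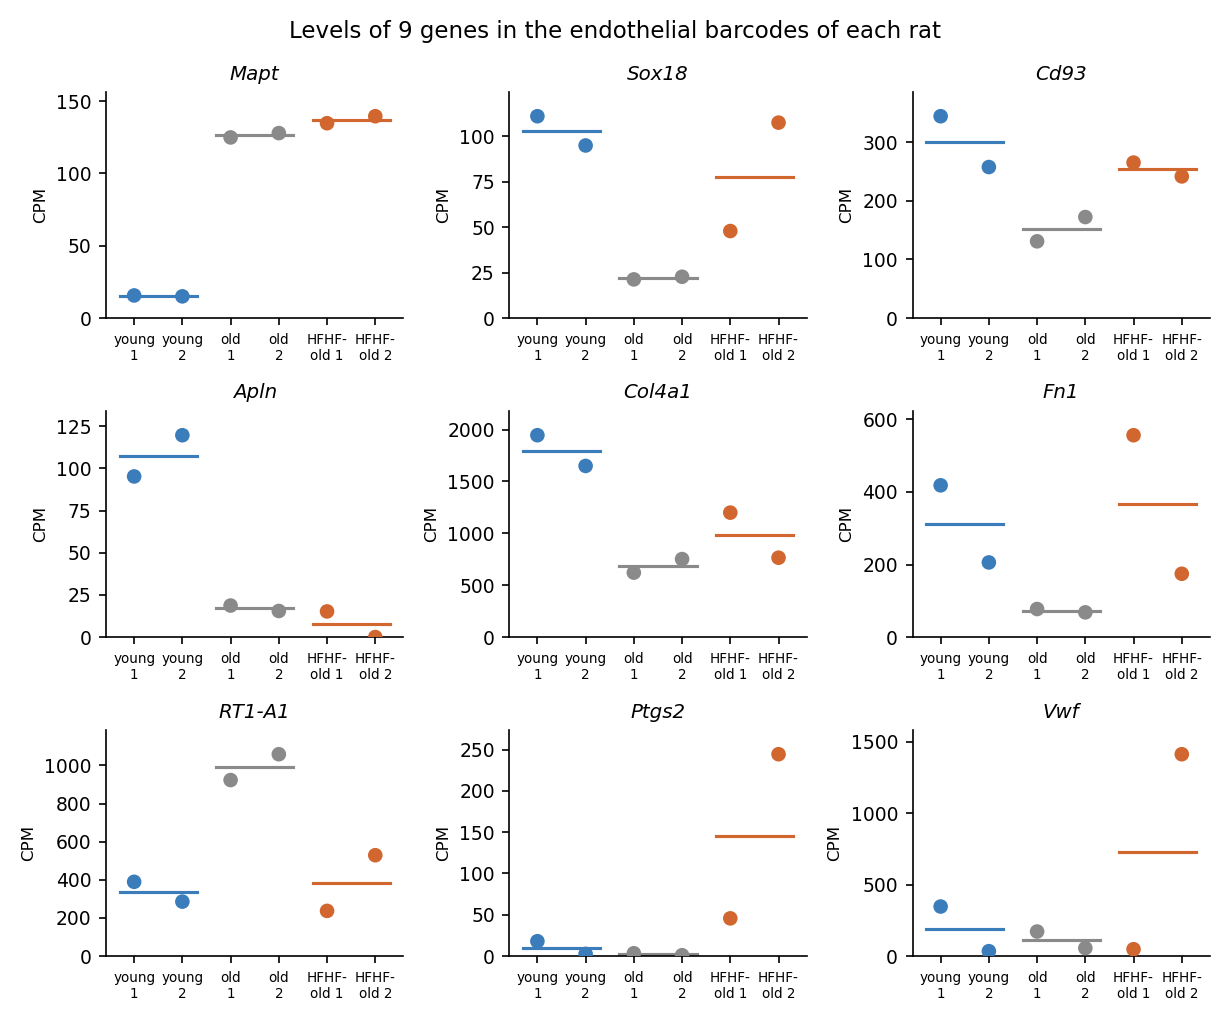
Level in CPM (each axis from 0) of 9 genes in the endothelial barcodes of each rat, with the group mean as a horizontal line. Mapt is higher in all 4 animals of 20 months than in both young rats, Sox18 and Cd93 are lowest in the old rats, and Ptgs2 and Vwf are highest in HFHF-old replicate 2.

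The other genes with the smallest p in old against young included several that are not endothelial. AABR07065625.1, an unnamed locus, was at 26.2 and 18.7 CPM in young rats, 203 and 281 in old rats and 13.0 and 10.7 in HFHF-old rats. In the other kept barcodes it was at 581 and 132, 4223 and 4828, and 275 and 498, higher than in the endothelial barcodes of every rat and also highest in the old rats. Its log2 fold change in old against young was 3.43 with an SE of 0.317 (edgeR adjusted p = 0.0523). It was called in 7 alternatives with all rats, among them DESeq2 (adjusted p = 1.42e-11). AABR07060872.1, another unnamed locus, was also highest in the old rats in endothelial barcodes, at 33.6 and 15.5, 359 and 1018, and 28.3 and 18.8, and stood at 281 to 15926.5 CPM in other barcodes. Its young and HFHF-old rats overlapped, and it was called in 2 alternatives with all rats in old against young. RT1-Bb, a class II histocompatibility gene of antigen-presenting cells, was at 1.38 and 3.63, 45 and 39.2, and 0 and 0. In the other kept barcodes RT1-Bb was at 28.5 and 23.3, 1454 and 642, and 32.9 and 16.7, also highest in the old rats. C5ar1 and Msr1, receptors of macrophages, were at most 38.2 CPM in any rat and lower in endothelial than in other barcodes in all but HFHF-old replicate 2.

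Genes of vessel growth were described by role. Of 16 genes tested of the list of VEGF and angiopoietin ligands, receptors and partners, 0 were called in old against young. In this comparison 7 stood above and 9 below young rats, and the median log2 fold change was −0.04, against 0.00 over all genes. Here and in the lists below, counts above and below give the signs of fold changes, not rats that lie apart. The rats were apart in 4 that were higher and 5 that were lower, against 14% and 16.6% of all genes tested. Apln, a peptide ligand made by sprouting endothelium, was at 95.3 and 120 CPM in young rats, 18.7 and 15.5 in old rats and 15.2 and 0 in HFHF-old rats. Both young rats lay above the 4 animals of 20 months, with a log2 fold change of −2.68, an SE of 0.799 and an edgeR adjusted p of 0.999, while DESeq2 gave an adjusted p of 0.0386. Angpt2, which loosens vessels by acting on the receptor Tek, was at 36.8 and 32.1, 12.7 and 6.19, and 17.4 and 16.1 (log2 fold change −1.85, SE 0.419, edgeR adjusted p = 0.999). Esm1, a proteoglycan of tip cells, was at 114 and 206, 51.8 and 117, and 15.2 and 34.9, lowest in HFHF-old rats (log2 fold change −1.90 against old, SE 0.607, edgeR adjusted p = 0.466). The receptors themselves were steadier, with Tek at 353 to 808, Nrp1, a co-receptor of VEGF, at 805 to 1417 and Tie1 at 230 to 328 CPM in the 6 rats.

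Identity genes moved little in the median. Of 39 endothelial identity genes tested, 18 stood above and 21 below young rats with a median log2 fold change of −0.01, and in 6 of them the 2 groups of rats did not overlap, against 30.5% of all genes tested. Cd93, a surface lectin of endothelium, was at 344 and 258 CPM in young rats, 131 and 172 in old rats and 265 and 242 in HFHF-old rats (old against young −0.99, SE 0.286, edgeR adjusted p = 0.999). Nos3, the endothelial nitric oxide synthase, ran from 86.5 to 141 CPM and Clec14a from 612 to 741. In HFHF-old against old rats, 22 of the 39 were higher and 17 lower with a median of 0.10. Both HFHF-old rats lay above both old rats in 17 of the 39, against 22.8% of all genes tested, and below them in 2, against 16.3%. Of 11 Notch pathway genes, 6 stood above and 5 below young rats (median 0.03) and 4 stood above and 7 below old rats in the HFHF-old group (median −0.12). The rats were apart in 2 that were higher and 4 that were lower in old against young, against 14% and 16.6% of all genes tested. In HFHF-old against old they were apart in 2 and 1, against 22.8% and 16.3%. Dll4, the Notch ligand of arterial and tip cells, was at 69.6 to 241 CPM.

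Basement membrane and matrix genes were lower in old than in young rats more often than higher. Of 21 tested, 0 were called, 19 were lower and 2 higher with a median log2 fold change of −0.60, and in 11 both old rats lay below both young rats, against 16.6% of all genes tested. Col4a1, a chain of the collagen of all basement membranes, was at 1946 and 1650.0 CPM in young rats, 621 and 752 in old rats and 1199.8 and 765 in HFHF-old rats, with a log2 fold change of −1.40, an SE of 0.410 and an edgeR adjusted p of 0.999. Its partner Col4a2 was at 239 and 151, 77.3 and 103, and 183 and 113 (−1.10, SE 0.346, edgeR adjusted p = 0.999). Col4a1 was at 34.0 to 200 CPM in other barcodes, and its log2 fold change was −1.28 with the barcodes that held other cell types' markers left out. In HFHF-old against old rats 14 of the 21 were higher and 7 lower with a median of 0.37, and 8 lay above both old rats in HFHF-old rats, against 22.8% of all genes.

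Fn1, the fibronectin gene, and Fbln2, which encodes fibulin 2, are genes that fibroblasts also express. Fn1 was at 418 and 206 CPM in young rats, 77.3 and 68.1 in old rats and 556 and 174 in HFHF-old rats, and Fbln2 at 139 and 60.6, 17 and 25.8, and 230 and 88.6. Both old rats were lowest for both genes. The log2 fold changes were −2.06 and −2.18 in old against young (edgeR adjusted p = 0.999 for both) and 2.21 and 2.78 in HFHF-old against old (edgeR adjusted p = 0.344 and 0.327). The fibroblast list, with all 7 of its genes detected in most rats, summed to 3544 and 1736 CPM in young rats, 454 and 542 in old rats and 3817 and 207 in HFHF-old rats. With the barcodes that held other cell types' markers left out, the changes were −0.97 and −0.98 in old against young and 1.27 and 1.48 in HFHF-old against old. In HFHF-old against old, Fbln2 was called in 1 alternative with all rats and Fn1 in 0. With HFHF-old replicate 2 left out, the changes in this comparison were 2.82 and 3.31.

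Genes for signals to islet cells followed the matrix list, with which they share Col4a1, Col4a2, Lama4, Lamb1 and Lamc1. Of 16 tested, 12 stood below and 4 above young rats (median −0.60), and 12 stood above and 4 below old rats in the HFHF-old group (median 0.38), with 0 called in either comparison. The rats were apart in 7 that were lower and 1 that was higher in the first comparison, against 16.6% and 14% of all genes tested, and in 6 that were higher in the second, against 22.8%. Cxcl12, a chemokine that also acts on endocrine cells, was at 2076 and 1107 CPM in young rats, 824 and 979 in old rats and 1341 and 754 in HFHF-old rats. Thbs1, an activator of transforming growth factor beta, was at 78.7 and 64.3, 56.1 and 55.7, and 99.98 and 191 (HFHF-old against old 1.24, SE 0.343, edgeR adjusted p = 0.395, and 0.72 without HFHF-old replicate 2). Hgf, hepatocyte growth factor, rested on HFHF-old replicate 2, at 129 CPM against 1.03 to 12.7 in the 5 others, and its log2 fold change against old rats was 3.05 with that rat and −0.80 without it.

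Between HFHF-old and old rats 1 gene was called (0.0103% of those tested), with 857 at an unadjusted p under 0.05 (8.87%), 40 called by DESeq2 (0.414%) and 45 called by edgeR without HFHF-old replicate 2 (0.419%, 41 higher and 4 lower). The called gene was AABR07065625.1, given above, which fell by 4.45 on the log2 scale with an SE of 0.353 and an edgeR adjusted p of 0.0340. It was called in 11 of 21 alternatives, and in 1 of the 6 fits that left out a rat, that without HFHF-old replicate 2 (−4.32, edgeR adjusted p = 0.0235). Those 11 include the alternative that repeats the main fit. UMIs of AABR07065625.1 were found in 72.2% and 14.2% of the old and 6.59% and 6.78% of the HFHF-old members. At 1000 UMIs they were in 24.6% and 9.38% of the old and in 0% of the HFHF-old members. For 78 and 56 barcodes a count of 0 allows shares of up to 3.85% and 5.36%. In the other kept barcodes the HFHF-old rats also stood below the old rats, by the levels given above.

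Several of the genes with the smallest p in this comparison belong to epithelial or endocrine cells. Krt8 and Krt18, keratins of duct and acinar epithelium, were at 127 and 73.2 and at 216 and 129 CPM in old rats, and at 2.17 and 0 and at 4.35 and 0 in HFHF-old rats. The Krt18 UMIs of the old rats came from 5 and 14 barcodes, and 1 barcode held 50% and 67.2% of them. Sctr, the secretin receptor, was at 41.6 and 36.1 in old rats and 0 in HFHF-old rats, at least 10.9-fold lower when 3 UMIs over the group are taken as the floor. RT1-Bb, the class II gene given above, was likewise at least 11.8-fold lower, and in the other kept barcodes the HFHF-old rats also stood below the old rats. Scg5, a granule protein of endocrine cells, was at 1112 and 177 in old rats and 4.35 and 2.68 in HFHF-old rats. The edgeR adjusted p of these genes was 0.209 and none was called in the main fit. Among the alternatives with all rats, Krt8, Krt18, Scg5 and Sctr were called in 1 each and RT1-Bb in 2. The ductal marker list summed to 591 and 320 CPM in old and to 15.2 and 0 in HFHF-old rats, and its part in these values was not tested.

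Several genes of vessel tone and clotting, among them Vwf, Ptgs2 and Procr, were highest in HFHF-old replicate 2. Of 23 tested in this list, 16 stood above and 7 below old rats in the HFHF-old group with a median log2 fold change of 0.32. In old against young, 11 stood above and 12 below young rats with a median of −0.21. The rats were apart in 9 that were higher and 3 that were lower in HFHF-old against old, against 22.8% and 16.3% of all genes tested. In old against young they were apart in 5 and 3, against 14% and 16.6%. Ptgs2, the inducible cyclooxygenase, was at 17.9 and 2.59 CPM in young rats, 3.40 and 1.03 in old rats and 45.6 and 244 in HFHF-old rats, with a log2 fold change of 5.78, an SE of 1.14 and an edgeR adjusted p of 0.316. In the other kept barcodes it was at 30.7 and 4.91, 32.99 and 9.56, and 111 and 26.8. There HFHF-old replicate 1 also stood above both old rats, and HFHF-old replicate 2 lay between them. Ptgs2 was lower in endothelial than in other barcodes in every rat but HFHF-old replicate 2. It was called by DESeq2 (adjusted p = 0.000607) and with lymphatic-type barcodes left out (edgeR adjusted p = 0.0126), and its UMIs came from 4 barcodes of HFHF-old replicate 1, of which 1 held 85.7%, and from 7 of HFHF-old replicate 2. Its change was 4.15 without HFHF-old replicate 2 (edgeR adjusted p = 0.191). Procr was at 128 and 47.2, 63.7 and 62.9, and 143 and 529 (2.26, SE 0.622, edgeR adjusted p = 0.395), and its change was 1.06 without HFHF-old replicate 2. Klf4, a factor induced by blood flow, was at 1092 and 456, 739 and 908, and 2078 and 1801, with both HFHF-old rats above the 4 others (1.11, SE 0.440), while the bradykinin receptor Bdkrb2 was at 39.1 and 34.2, 73.9 and 62.9, and 60.9 and 56.4 (old against young 0.89, SE 0.273, edgeR adjusted p = 0.999).

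Immune genes were described by their lists of antigen presentation, interferon response and adhesion, with 0 called in either comparison by the main edgeR fit. RT1-Bb, given above, was called in 2 alternatives with all rats in each comparison. RT1-A1, a class I histocompatibility gene that shares reads with close copies, was at 389 and 286 CPM in young rats, 923 and 1058 in old rats and 237 and 529 in HFHF-old rats. Both old rats were highest, with log2 fold changes of 1.56 (SE 0.421, edgeR adjusted p = 0.999) against young and −1.51 (SE 0.422, edgeR adjusted p = 0.395) in HFHF-old against old. In the other kept barcodes RT1-A1 was also highest in both old rats, at 262 and 176, 957 and 642, and 142 and 293. Of 18 antigen presentation genes, 6 had fold changes above and 12 below 0 in old against young (median −0.31), but the groups were apart in 3 that were higher and in 0 that were lower, against 14% and 16.6% of all genes tested. In HFHF-old against old, 6 were above and 12 below 0 (median −0.43), and the groups were apart in 1 that was higher and 5 that were lower, against 22.8% and 16.3% of all genes. Of 23 interferon response genes, 21 stood below and 2 above young rats (median −0.38) with the rats apart in 5 that were lower, and 13 stood above and 10 below old rats in the HFHF-old group (median 0.26) with the rats apart in 6 that were higher, both near the shares over all genes. Gbp5, an interferon-induced GTPase, was at 52.0 and 32.1, 11.9 and 28.9, and 54.3 and 188 (HFHF-old against old 2.42, SE 0.640, edgeR adjusted p = 0.370, and 1.30 without HFHF-old replicate 2). Of 20 adhesion and activation genes, 10 stood above and 10 below young rats and 14 stood above and 6 below old rats in the HFHF-old group. The rats were apart in 2 that were higher and 5 that were lower in old against young, and in 6 and 1 in HFHF-old against old. Icam1, the ligand for leukocyte integrins, was at 46.9 and 18.7, 34.0 and 47.5, and 80.4 and 158 (1.41, SE 0.462, edgeR adjusted p = 0.474, and 0.87 without HFHF-old replicate 2). The shares over all genes are those given for antigen presentation. In the other kept barcodes Icam1 was at 59.7 and 20.2, 76.2 and 40.5, and 249 and 49.1.

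**Figure D4:**
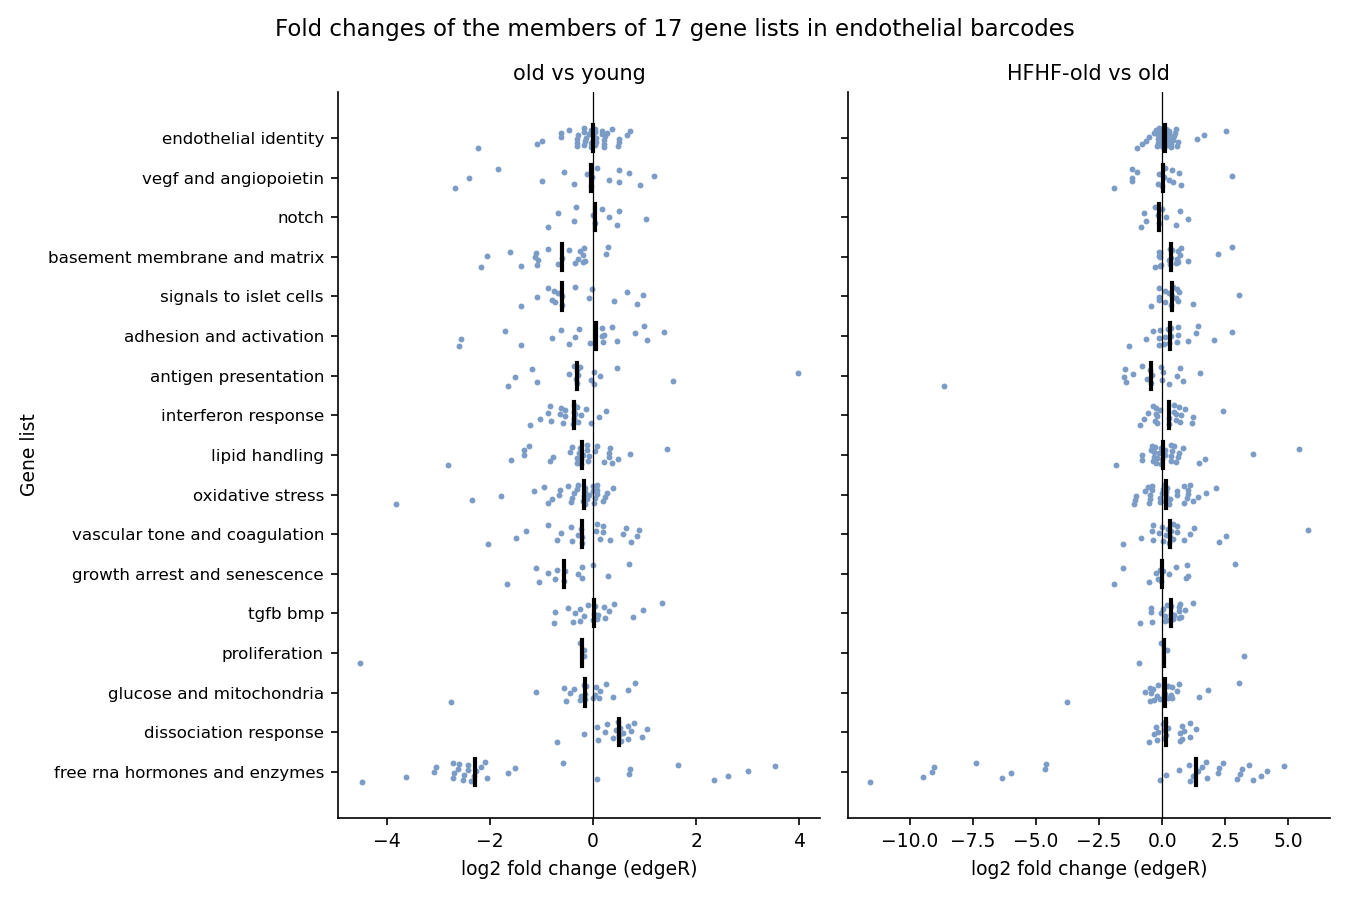
Log2 fold change of every tested member (points) and the median (black bar) of 17 gene lists, for old against young on the left and HFHF-old against old on the right (the axes differ). The matrix and islet-signal lists have medians of −0.60 on the left and 0.37 and 0.38 on the right. The list of hormone and enzyme genes has the widest spread.

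Lipid and stress genes showed no called member either, and the counts of genes in which the rats were apart are read against the shares over all genes, 14% higher and 16.6% lower in old against young and 22.8% higher and 16.3% lower in HFHF-old against old. In the first comparison these were 3 higher and 3 lower of the lipid genes, 1 and 7 of the oxidative stress genes and 0 and 5 of the growth arrest genes. In the second they were 4 and 2, 10 and 5, and 2 and 1. Of 30 lipid handling genes, 10 stood above and 20 below young rats (median −0.21) and 15 stood above and 15 below old rats in the HFHF-old group (median 0.04). Gpihbp1, which anchors lipoprotein lipase on capillaries, was at 1781 and 1014 CPM in young rats, 434 and 1159 in old rats and 937 and 515 in HFHF-old rats, and the scavenger receptor and fatty acid carrier Cd36 at 1492 and 458, 536 and 955, and 913 and 1165. Tcf15, a factor of capillary fatty acid uptake, was at 208 and 192, 95.2 and 38.2, and 146 and 75.2 (old against young −1.60, SE 0.494, edgeR adjusted p = 0.999). Of 33 oxidative stress genes, 9 stood above and 24 below young rats (median −0.17) and 20 stood above and 13 below old rats in the HFHF-old group (median 0.15). Of 14 genes of growth arrest and senescence, 3 stood above and 11 below young rats (median −0.56) and 7 stood above and 7 below old rats in the HFHF-old group (median −0.01). Only 4 of the proliferation genes passed the filter on low counts, and Mki67, which marks dividing cells, had a UMI in 1.97% and 5.93% of the members in young rats, 0% and 0.499% in old rats and 1.10% and 0% in HFHF-old rats, in each rat below the share in its other kept barcodes, which was 2.05% to 15.7%. At 1000 UMIs the shares were 0.468% and 1.79%, 0% and 0%, and 1.28% and 0%, where a count of 0 allows up to 2.38%, 0.880% and 5.36%, so no order of the groups was read.

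The remaining lists were transforming growth factor and bone morphogenetic protein signalling, glucose metabolism and the response to dissociation. Of 21 genes of the first, 11 stood above and 10 below young rats (median 0.01) and 16 stood above and 5 below old rats in the HFHF-old group (median 0.35). The rats were apart in 2 that were higher and 3 that were lower in old against young, against 14% and 16.6% of all genes tested. In HFHF-old against old they were apart in 9 and 2, against 22.8% and 16.3%. Smad6, an inhibitor of this pathway, was at 18.4 and 22.3 CPM in young rats, 74.8 and 29.9 in old rats and 58.7 and 51.0 in HFHF-old rats (old against young 1.33, SE 0.466, edgeR adjusted p = 0.999, and 0.53 to 1.82 over the alternatives). Of 21 glucose and mitochondrial genes, 9 stood above and 12 below young rats and 11 stood above and 10 below old rats in the HFHF-old group. For these the rats were apart in 2 and 4 in the first comparison and in 5 and 2 in the second. Hk2, a hexokinase, was at 22.5 and 17.6, 0.850 and 5.16, and 34.8 and 18.8, lowest in both old rats (−2.75 and 3.05, edgeR adjusted p = 0.999 and 0.331), and it was 41.5 to 144 in other barcodes. The old levels of Hk2 rest on 1 and 5 UMIs. Over the alternatives its changes ran from −4.43 to −1.76 and from 2.24 to 4.71. Of 19 genes that dissociation of tissue induces, 17 had fold changes above and 2 below 0 in old against young (median 0.51), but both old rats lay above both young rats in only 1 of them, against 14% of all genes tested. In HFHF-old against old 14 were above and 5 below 0 (median 0.15), with the rats apart in 7 that were higher, against 22.8% of all genes, 0 were called, and the part of this response in other results was not tested.

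RNA of other cell types differed between the endothelial barcodes of the 6 rats. Macrophage markers summed to 727 and 1716 CPM in young rats, 241 and 481 in old rats and 832 and 2.68 in HFHF-old rats, with all 8 genes detected in the first 5 rats and 1 in HFHF-old replicate 2. T and NK cell markers summed to 662 in young replicate 2 and to 37.0 to 151 in the others, and mesothelial markers to 364 in old replicate 1 and at most 51.3 elsewhere. Haemoglobin and other erythrocyte genes summed to 25890 CPM in HFHF-old replicate 2, where 1 barcode held 4814 of the 4816 Hba-a2 UMIs and was the only one with 10 or more haemoglobin UMIs, and to 10.9 to 962 in the other rats. The 30 tested genes of islet hormones and digestive enzymes are named free RNA genes here, whether or not their RNA was free. Of these, 22 stood below and 8 above young rats (median −2.29). In the HFHF-old group 20 stood above and 10 below old rats (median 1.32), and 0 were called by the main edgeR fit. Chga and Iapp were each called in 1 alternative with all rats, in HFHF-old against old. The rats were apart in 0 that were higher and 13 that were lower in the first comparison, against 14% and 16.6% of all genes, and in 0 and 9 in the second, against 22.8% and 16.3%. The HFHF-old values of the enzymes came from replicate 1, where the trypsinogen gene Prss1 was at 12072 CPM, against 64.4 in replicate 2 and 957 and 1145 in the old rats, and 1 barcode held 69.2% of its UMIs in replicate 1. In old replicate 1 the endocrine RNA came from few barcodes, of which 1 held 96.4% of the Ppy and 98% of the Gcg UMIs.

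**Figure D5:**
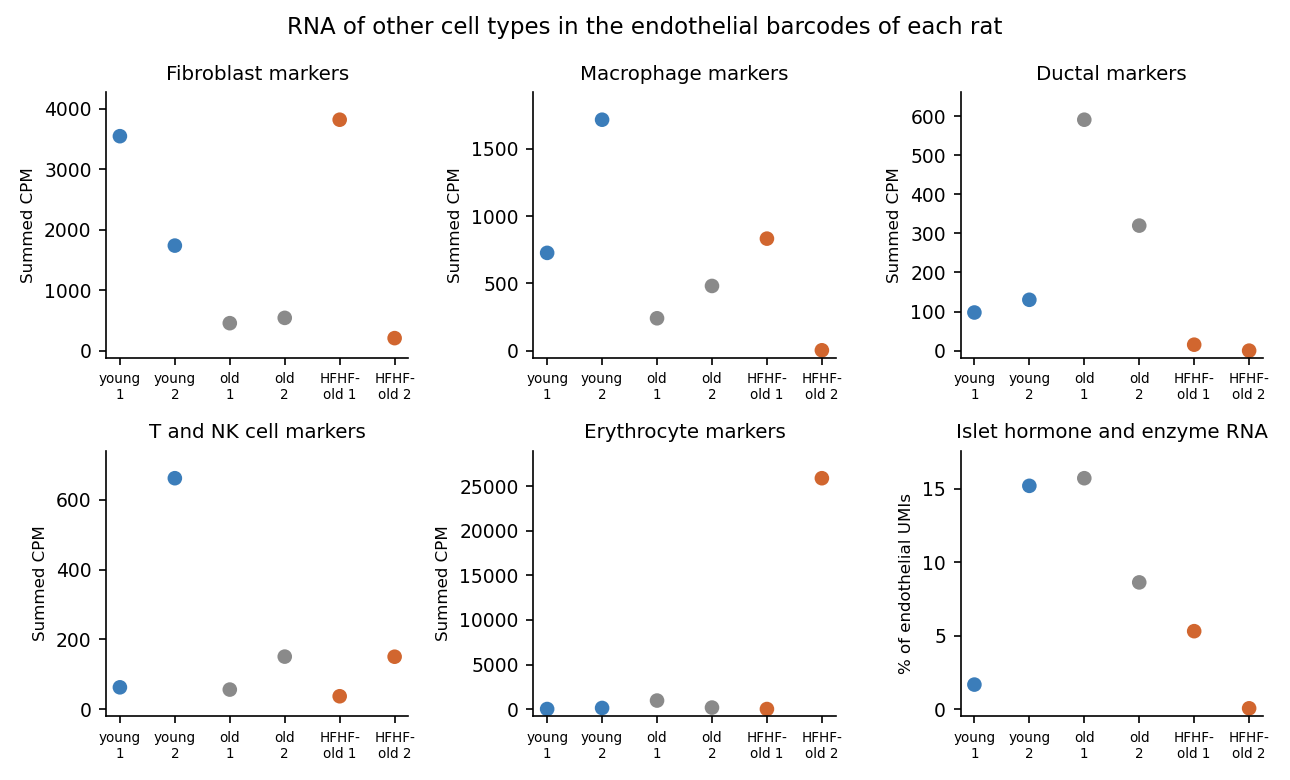
Summed level in CPM of marker lists of other cell types in the endothelial barcodes of each rat, and (lower right) islet hormone and enzyme RNA as a percentage of all endothelial UMIs, coloured by group. HFHF-old replicate 2 has the highest erythrocyte sum, 25890 CPM, and the lowest share of hormone and enzyme RNA, 0.0566%.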

How the data were processed

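Single-cell RNA sequencing (10x Genomics 3' v3.1) was analysed for 6 libraries, 1 per rat and 2 per group. The deposited values are counts of UMIs per gene and barcode, not normalized, which the authors made with Cell Ranger and deposited as filtered matrices of 32883 genes. The file headers give version 5.0.0, and the submitters' processing notes name the build Rnor 6.0. Droplet filtering by the authors set which barcodes could be counted, and free RNA was not removed.

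Barcodes were chosen by the rule given above. From their raw counts, UMIs were summed per rat and tested with edgeR 4.0.16 (R 4.3.3, TMM, filterByExpr, glmQLFit and glmQLFTest) in 1 fit of 6 rats without covariates, with 3 residual degrees of freedom. An SE is the size of the log2 fold change over the root of its F statistic. Rule genes were not tested. Shares were compared with two-sided exact permutation tests over every split of the rats, computed with NumPy 2.4.6. The exact intervals of the shares came from SciPy 1.17.1. DESeq2 1.42.0, other filters, other membership rules, thinning to 1000 UMIs, doublets called with Scanpy 1.11.5 and left-out rats were the alternatives, and the scripts were tested on simulated data. Levels are CPM, UMIs per 1000000 of all genes. Whether the rats of 2 groups were apart was read on these levels, without the TMM factors that the fold changes use. Those factors were 1.08 and 0.862 in young, 0.982 and 0.966 in old and 1.05 and 1.08 in HFHF-old rats. Levels therefore place HFHF-old rats slightly higher against old rats than the fold changes do. Doublets stayed in the main counts. The members and gene lists were chosen with earlier results of these data known. Named genes were, per comparison, the 10 of smallest p where fewer than 10 were called, the 2 of smallest p in each list, the rule genes and the 20 most characteristic genes. Not all of them are printed. Among those whose levels are left out are NEWGENE_1308171, AC127784.2, LOC100912195, Snhg11, Camk2b and Gria2. The levels of Nox4, Cybb, Gclc, Prdx2, Ccl7, Cxcl9, Igfbp3, Lpl and Nr4a1 are also left out. Other genes in the text, among them Tek, Nrp1, Cxcl12, Klf4, Vwf, Il33, Fabp4 and Cd36, were chosen after their values were seen. Same-numbered rats of 2 groups deviated with correlations of 0.0934, −0.217 and −0.0766 and were not treated as pairs.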

Additional observations from a re-analysis of the deposited data

How the results depend on the processing

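With 2 rats a group, depth and spread limit calls to large changes. The count of genes called in old against young, 0, was 10 with DESeq2, 5 with the rule applied at 1000 UMIs, 3 with no filter on low counts, 2 each with free RNA genes left out, with the older quasi-likelihood method, with lymphatic-type barcodes left out and with the top 1% of gene number left out, and 0 to 5 with 1 rat left out. The count in HFHF-old against old, 1, was 40 with DESeq2, 3 with the rule applied at 1000 UMIs, 2 with lymphatic-type barcodes left out, and 0 with at least 4 endothelial genes required, with barcodes of other cell types left out, with both (an alternative chosen after seeing the data), with called doublets left out and with the replicate number as a block, and 0 to 45 with 1 rat left out, highest without HFHF-old replicate 2. Leaving out 1 rat gave Chga −0.95 to 3.27, Chgb −0.23 to 4.46 and Pcna −0.64 to 0.058 in old against young, and Angptl4 −0.018 to 5.08, Cdk1 −2.59 to 5.74 and Hgf −0.80 to 5.72 in HFHF-old against old. A group left with 1 rat was assumed to vary like the others. The replicate block gave 0 calls in either comparison. The cause of these differences was not tested. Both differences in share kept their sign in every alternative, but their size depended on the denominator. Without Ptprc barcodes in the denominator they were −1.72 percentage points in old against young and −1.16 in HFHF-old against old. There the HFHF-old mean was 0.766 times the old mean, against 0.282 times in the main count, and those groups overlapped. In the other alternatives the differences ran from −1.24 to −0.133 and from −1.83 to −1.29. Of 1712 values for 85 combinations of named gene and comparison, 13 changed sign, none of them called. The 1712 values include those of the alternative that repeats the main fit, which could not change sign. In old against young, Chga went to −0.33 with at least 4 endothelial genes, −1.19 when other cell types were left out as well, −1.11 with other cell types left out alone, −2.32 at 1000 UMIs and −0.95 without old replicate 1, Chgb to −0.081 with at least 4 genes and −0.23 without old replicate 1, Pcna to 0.058 without old replicate 1, and Cybb to 0.13 with other cell types left out and to 0.13 with both conditions. In HFHF-old against old, Angptl4 went to −0.018 and Cdk1 to −2.59 without HFHF-old replicate 1, and Hgf to −0.80 without HFHF-old replicate 2.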
